A study of Homo sapiens with 4 samples.

Results

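A group of 10 genes that code for AP-1 subunits or are classical immediate early genes were followed upon PML knockdown, namely FOS, FOSB, FOSL1 and FOSL2, JUN, JUNB and JUND, MAFF, EGR1 and IER2. They were chosen by name, as the 10 rows of the deposited count table with these symbols out of 59050 genes, and shPML was compared with shCtrl within each replicate. All 10 passed the filter on low counts, which left 16516 genes. RCC4 cells, an established clear cell renal carcinoma line, carried a doxycycline-inducible hairpin against PML (shPML#1, written shPML) or a scrambled hairpin (shCtrl). Both groups were puromycin-selected bulk populations kept in doxycycline at 100 ng/ml for 96 h, each group was read in 2 libraries from independent lentiviral infections, and a single hairpin stands for the knockdown. The libraries held between 27781193 and 69870617 counted reads. PML itself, the targeted gene, was at 93.1 CPM in shCtrl and 54.9 CPM in shPML of replicate 1, and replicate 2 had 136 CPM in shCtrl against 87.6 CPM in shPML. Its log2 fold change was -0.69 with an adjusted p of 0.32 in edgeR without the block described below, and -0.70 with an adjusted p of 4.2e-07 with it. CPM stands for counts scaled by library size with the TMM factors of edgeR.

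AP-1 is a dimer of basic leucine zipper proteins. Jun proteins pair with each other or with Fos proteins, while Fos proteins need a Jun partner. The dimer binds sequences such as TGACTCA, a form of the TGANTCA searched below, or the related TGACGTCA. FOS, FOSB, JUN, JUNB, EGR1 and IER2 are among the immediate early genes. Such genes are switched on within minutes of a growth factor or stress signal without new protein synthesis, and their transcripts are short-lived. Serum response factor (SRF), bound at CArG boxes together with ERK-activated ternary complex factors such as ELK1, drives many of them. In epithelial tumour cells FOSL1 and FOSL2 are the Fos proteins that persist in steadily growing cells, and AP-1 is known for its part in secretory and inflammatory programmes of senescent cells.

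The library of shPML replicate 2 stood apart from the others. In shPML replicate 2, 26 of 30 markers of monocytes and macrophages had over 100 counts, against 2 in each shCtrl library and 4 in shPML replicate 1. LYZ (lysozyme) had 2349 counts there and 4, 1 and 3 counts in shCtrl replicate 1, shCtrl replicate 2 and shPML replicate 1. CD14, a monocyte co-receptor for endotoxin, had 1177 counts against 2, 4 and 3, and SPI1, the myeloid master regulator, had 391 counts against 0, 9 and 0. The summed level of the 30 markers was 569 CPM in shPML replicate 2, 37.0 CPM in shPML replicate 1, and 23.4 and 14.6 CPM in the shCtrl libraries. The other libraries had 10 counts or fewer for 23, 24 and 23 of the 30 markers, while ITGB2 and MSR1 had over 100 counts in all 4 libraries. CD68 and C1QB were at 0 in shPML replicate 2. In the same library 87 genes had over 100 counts while having 10 or fewer in every other library, and no such gene existed for any other library. The T cell, B cell and fibroblast markers CD3E, MS4A1, DCN and LUM were at 0 in all libraries, and the renal markers PAX8 (302 to 427 CPM) and PAX2 (27.8 to 69.6 CPM) were present in all of them. Not all markers of other cell types were absent. PECAM1 had 113 counts in shPML replicate 2, against 0 in each shCtrl library and 3 in shPML replicate 1. PDGFRB was at 3.44 and 9.53 CPM in shCtrl and at 2.43 and 2.40 CPM in shPML of replicates 1 and 2. The list of 30 monocyte and macrophage markers was written after these values had been seen. Monocytes and macrophages are known to express immediate early genes, so the values of replicate 1 alone stand beside those of replicate 2, and the part of these transcripts in the results was not tested. In RNA from whole cultures, fewer cells of a type and less RNA per cell cannot be told apart.

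**Figure D1:**
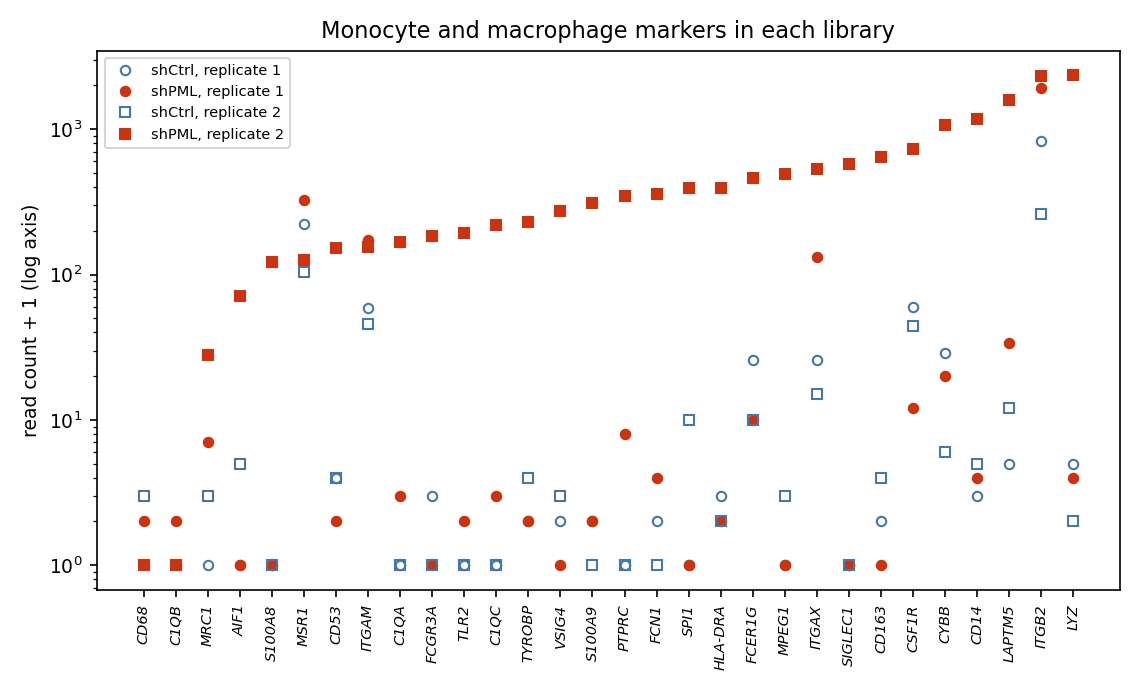
Read counts plus 1 (log axis) of 30 monocyte and macrophage markers, ordered by their count in shPML replicate 2, with 1 point per library. The filled squares of shPML replicate 2 lie at the top for 26 of the 30 genes, the exceptions being CD68, C1QB, MSR1 and ITGAM, and most points of the other libraries lie at 10 counts or fewer.

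The promoters of the genes are given first, because CArG boxes and AP-1 words are the elements through which immediate early genes are classically driven. Windows from 500 bases before to 50 bases after the RefSeq start were searched on both strands for the CArG box, TGANTCA, TGACGTCA and GCGNGGGCG, the last a site of EGR proteins. N stands for any base, so TGANTCA takes in more sequences than TGACTCA. Windows of 9 of the 10 genes were searched, the exception being FOSL1. A CArG box was found in the windows of FOS, FOSB and EGR1, 3 of the 9 genes, and in 2.56% of 35116 windows of all genes. EGR1 holds 5 of them, at -418, -380, -364, -105 and -83 from the start, FOS holds 1 at -314 and FOSB 1 at -274. The sequences below are of GRCh38.p14, written along the strand of the gene with the CArG box in capitals, for FOS (chr14:75278504-75278533, plus strand), FOSB (chr19:45467712-45467741, plus strand) and EGR1 (chr5:138465051-138465080 and chr5:138465364-138465393, plus strand).
FOS: cacaggatgtCCATATTAGGacatctgcgt
FOSB: cggccgagctCCTTATATGGctaattgcgt
EGR1, distal: cccggaaatgCCATATAAGGagcaggaagg
EGR1, proximal: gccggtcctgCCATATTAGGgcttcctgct
The FOS box and the proximal EGR1 box shown have the same 10 bases. AP-1 and CRE words were found in 3 windows. TGACGTCA lies in those of FOSB and JUND, 2 of 9 against 2.18% of all windows, and TGANTCA lies in that of FOSL2, 1 of 9 against 13% of all windows. They are shown with the word in capitals, because they are the words that AP-1 and related dimers bind, for FOSB (chr19:45467660-45467689, plus strand), JUND (chr19:18281804-18281833, minus strand) and FOSL2 (chr2:28392851-28392880, plus strand, at 4 from the start).
FOSB: gggattccctcTGACGTCAttgctaggata
JUND: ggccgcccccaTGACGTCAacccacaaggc
FOSL2: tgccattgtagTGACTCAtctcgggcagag
The word GCGNGGGCG was found in the windows of FOSB, JUND and EGR1, 3 of 9 against 12.1% of all windows. None of the 4 motifs was found in the windows of JUN, JUNB, MAFF and IER2, which says only that these letters are not there. A match in a window is a description of its sequence, and no binding was measured here.

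Upon PML silencing, FOS, FOSB, JUNB and EGR1 were higher in shPML in each replicate, whereas JUN and FOSL2 were almost level in each. Without a block for the experiment, the quasi-likelihood test of edgeR called 0 of the 10 genes, where a call needs a log2 fold change past 0.5 in size together with an adjusted p below 0.05, and 3 of them were higher at an unadjusted p under 0.05 (FOS, FOSB and EGR1). Over all genes that fit called 0.0787% higher and 0.333% lower, and 7.8% were higher at an unadjusted p under 0.05. With the experiment, read from the replicate number, as a block in the same test, 4 of the 10 genes were called higher and 0 lower, while 8.57% of all genes were called higher and 10.5% lower. In replicate 1 alone, where 23 of the 30 monocyte and macrophage markers had 10 counts or fewer in each library, the same 4 genes had a log2 ratio beyond 0.5, against 14.7% of all genes, and a replicate with 1 library per condition allows no test. The median log2 fold change of the 10 genes was 0.38 without the block, against 0.01 over all genes, and their median log2 ratios were 0.16 and 0.48 in replicates 1 and 2, against 0.00 in both over all genes. Without shPML replicate 2 the median without the block was -0.07. The ratio was larger in replicate 2 than in replicate 1 for 9 of the 10 genes.

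DESeq2, run as a second tool, called FOS and EGR1 higher without the block, 2 of 10 against 3.82% of all genes with 6.07% lower, and JUNB and EGR1 higher with it, 2 of 10 against 7.41% with 9.62% lower. It called 0 of the 10 genes lower with the block. With no fold threshold, edgeR with the block placed 6 of 10 genes higher at an adjusted p below 0.05 and 0 lower, against 14.5% and 15.7% of all genes. The ratio was above 0 in both replicates for 8 of 10 genes, against 37.2% of all genes, and below 0 in both for 2 of 10, JUN and FOSL2, against 37.3%. A log2 ratio above 0.5 was reached by 5 of 10 genes in replicate 2, against 20.4% of all genes, and by 4 of 10 in both replicates, against 9.53%. None of the 10 genes had a log2 ratio below -0.5 in replicate 1, where 18.1% of all genes had one. Both shPML libraries lay above both shCtrl libraries for 4 of 10 genes (23.1% of all genes) and below them for 0 (24.9% of all genes, and 48% in either direction).

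**Figure D2:**
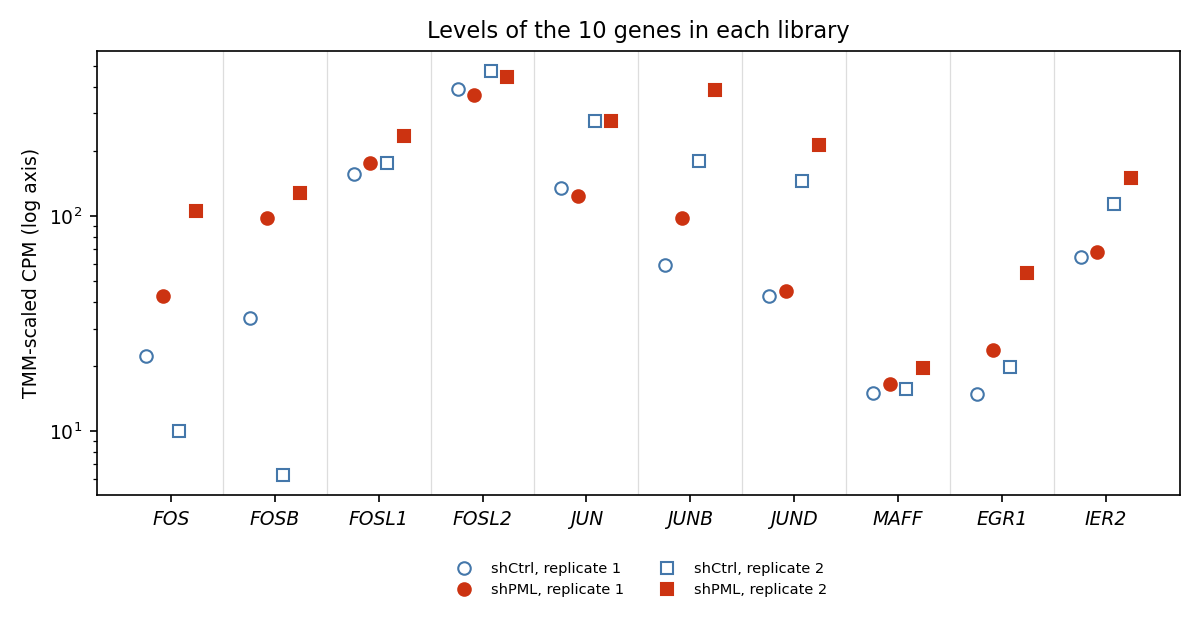
Levels of the 10 genes as TMM-scaled CPM (log axis), with 1 point per library, open for shCtrl and filled for shPML, circles for replicate 1 and squares for replicate 2. FOS and FOSB spread most widely, with shCtrl replicate 2 lowest, and JUN, JUNB, JUND and IER2 lie higher in both replicate 2 libraries than in both replicate 1 libraries.

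FOS codes for the founding member of the Fos proteins and lies on chromosome 14 of GRCh38 from 75278826 to 75282230, on the plus strand. It was at 22.3 CPM in shCtrl and 42.4 CPM in shPML of replicate 1, while replicate 2 had 10.1 CPM in shCtrl and 105 CPM in shPML. Both shPML libraries lay above both shCtrl libraries, and shPML replicate 2 was the highest. The ratio was 1.90-fold in replicate 1 and 10.5-fold in replicate 2. On the log2 scale these are 0.92 (95% interval 0.83 to 1.02) and 3.39 (95% interval 3.23 to 3.55), with exact intervals that cover counting error only. In edgeR the fitted difference was 2.18 on the log2 scale (standard error 0.56, adjusted p = 0.14 when unblocked) and 2.09 (standard error 0.22, adjusted p = 5.0e-12) with the block. DESeq2 with the block gave 2.16 and an adjusted p of 0.125, so the call of FOS with the block depends on the tool. Without shPML replicate 2 the fit without the block gave 1.39.

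FOSB, whose product is a close relative of FOS that also pairs with Jun proteins, lies on chromosome 19 from 45467995 to 45475179, on the plus strand. Replicate 1 had 33.6 CPM in shCtrl and 98.4 CPM in shPML, and replicate 2 had 6.25 CPM in shCtrl and 128 CPM in shPML. Both shPML libraries lay above both shCtrl libraries, and shCtrl replicate 2 was the lowest. FOSB was 2.93-fold higher in shPML of replicate 1 and 20.6-fold higher in replicate 2, or 1.55 (95% interval 1.48 to 1.63) and 4.36 (95% interval 4.17 to 4.56) on the log2 scale. In edgeR FOSB differed by 2.50 on the log2 scale (standard error 0.75, adjusted p = 0.181 when unblocked) and 2.80 (standard error 0.23, adjusted p = 3.1e-15) with the block, and in DESeq2 with the block 2.96 with an adjusted p of 0.0618. With shPML replicate 2 left out, the unblocked value was 2.30. The shCtrl library of replicate 2 had the lowest level of both FOS and FOSB among the libraries. For FOS the wider gap in replicate 2 came from both sides of the ratio. Its level there was 0.45 times that of replicate 1 in shCtrl and 2.48 times in shPML. For FOSB it came mostly from shCtrl, at 0.186 times, with shPML at 1.31 times. FOSB overlaps ERCC1 on the opposite strand without shared exonic bases.

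EGR1 encodes a zinc finger transcription factor that serum and ERK signals induce, and lies on chromosome 5 from 138465479 to 138469303, on the plus strand. Replicate 1 had 14.9 CPM in shCtrl and 23.96 CPM in shPML, and replicate 2 had 19.8 CPM in shCtrl and 54.4 CPM in shPML. All shPML values lay above all shCtrl values, and the replicate 2 libraries were the higher ones in each condition. EGR1 was 1.61-fold higher in replicate 1 and 2.75-fold in replicate 2, or 0.69 (95% interval 0.57 to 0.81) and 1.46 (95% interval 1.33 to 1.59) as log2 ratios. The edgeR estimate for EGR1 was 1.18 on the log2 scale (standard error 0.41, adjusted p = 0.233 when unblocked) and 1.07 (standard error 0.14, adjusted p = 3.6e-09) with the block. DESeq2 called EGR1 both without the block (adjusted p = 0.0446) and with it (adjusted p = 8.1e-06). Without shPML replicate 2 the value without the block was 0.47.

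JUNB codes for a Jun protein often described as a weaker activator than JUN, and lies on chromosome 19 from 12791486 to 12793315, on the plus strand. Replicate 1 had 59.2 CPM in shCtrl and 98.1 CPM in shPML, and replicate 2 had 180.0 CPM in shCtrl and 387 CPM in shPML. The conditions overlapped across replicates, as shCtrl replicate 2 was above shPML replicate 1, while shPML was higher within each replicate. The ratios were 1.66-fold and 2.15-fold, or 0.73 (95% interval 0.67 to 0.79) and 1.10 (95% interval 1.06 to 1.15) on the log2 scale. For JUNB edgeR gave 1.02 on the log2 scale (standard error 0.77, adjusted p = 0.577 when unblocked) and 0.92 (standard error 0.10, adjusted p = 1.0e-10) with the block. DESeq2 with the block called it as well (adjusted p = 4.8e-13). Without shPML replicate 2 the fit without the block gave -0.29, since the remaining shPML library then stands against the control libraries of both experiments.

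**Figure D3:**
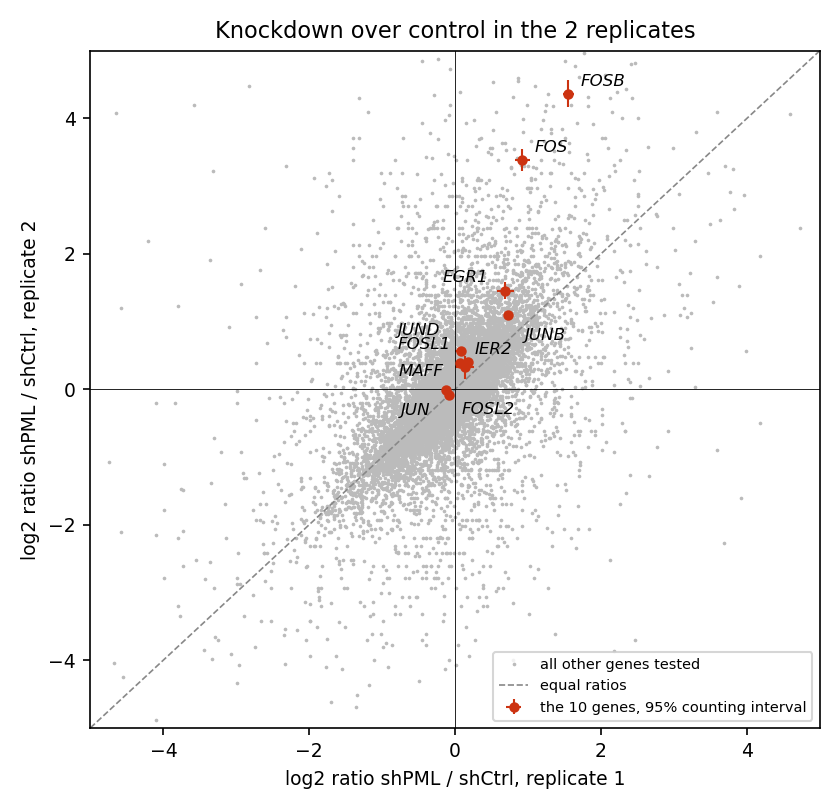
Log2 ratio of shPML over shCtrl in replicate 1 (x axis) and replicate 2 (y axis), with the 10 genes in red and their exact 95% counting intervals, and the other genes tested with reads in every library in grey; 35 genes lie outside the axes. FOSB (1.55 and 4.36) and FOS (0.92 and 3.39) lie far above the line of equal ratios, and JUN and FOSL2 lie near the origin.

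The other Fos genes, which give most Fos transcripts per kb in these cells, were not called. FOSL1 (FRA-1, chromosome 11 from 65892049 to 65900526, minus strand) was at 156 and 177 CPM in shCtrl and shPML of replicate 1, and at 177 and 235 CPM in replicate 2. The conditions met, since shCtrl replicate 2 and shPML replicate 1 were both at 177 CPM. Its log2 fold change with the block was 0.29 (standard error 0.10, adjusted p = 0.021 in edgeR), short of the fold threshold of 0.5. FOSL2 (FRA-2, chromosome 2 from 28392802 to 28417317, plus strand) had 387 and 366 CPM in shCtrl and shPML of replicate 1, and 472 and 445 CPM in replicate 2. AC104695.2 and AC104695.4, which overlap its span without shared exonic bases, had at most 31 counts. It was slightly lower in shPML in each replicate, with log2 ratios of -0.08 and -0.09, and the fit with the block gave -0.08 (standard error 0.09, adjusted p = 0.563 in edgeR).

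JUN codes for the founding Jun protein, the main Jun partner in AP-1 dimers, and lies on chromosome 1 from 58780788 to 58784327, on the minus strand. Replicate 1 had 135 CPM in shCtrl and 124 CPM in shPML, and replicate 2 had 277 and 276 CPM. Its level followed the experiment and not the condition. The log2 ratios were -0.12 (95% interval -0.17 to -0.08) and -0.01 (95% interval -0.05 to 0.04) in replicates 1 and 2, and the log2 fold change with the block was -0.06 (standard error 0.10, adjusted p = 0.688 in edgeR). JUND, a Jun protein abundant in resting cells, lies on chromosome 19 from 18279760 to 18281622, on the minus strand. It had 42.7 and 44.9 CPM in shCtrl and shPML of replicate 1, and 146 and 215 CPM in replicate 2. The log2 ratios of JUND were 0.07 and 0.56 in replicates 1 and 2. Replicate 2 holds the library with myeloid transcripts, whose part in this difference was not tested. JUND was also 3.42-fold higher in shCtrl of replicate 2 than in shCtrl of replicate 1. With the block the log2 fold change of JUND was 0.32 (standard error 0.11, adjusted p = 0.0206 in edgeR), short of the fold threshold.

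MAFF codes for a small Maf protein, a basic leucine zipper partner without an activation domain, and lies on chromosome 22 from 38201932 to 38216507, on the plus strand. It was the lowest of the 10 genes in CPM in shPML, with 15.1 and 16.6 CPM in shCtrl and shPML of replicate 1, and 15.8 and 19.7 CPM in replicate 2. Both shPML libraries lay above both shCtrl libraries by a small margin, and the log2 fold change with the block was 0.23 (standard error 0.14, adjusted p = 0.244 in edgeR). MAFF shares 326 exonic bases with PLA2G6 on the other strand, which had 479 to 1440 counts against 542 to 1189 for MAFF. IER2, an immediate early gene for a nuclear protein, lies on chromosome 19 from 13150411 to 13154911, on the plus strand. It had 64.6 and 67.8 CPM in shCtrl and shPML of replicate 1, and 114 and 149 CPM in replicate 2. The log2 ratio was 0.07 and 0.39, and the log2 fold change with the block 0.23 (standard error 0.11, adjusted p = 0.105 in edgeR). IER2 shares exonic bases with 2 genes on the opposite strand, AC011446.2 and AC011446.3, which had at most 36 counts. Since the strand setting of the counting is not given in the sources used here, reads of such pairs cannot be told apart.

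To compare the genes with each other, levels were divided by the exonic length of the gene, giving CPM per kb. In shCtrl, FOSL1 had the highest mean at 90.6 ± 7.95 CPM per kb (SD, n = 2), followed by JUNB at 65.4 ± 46.7, FOSL2 at 63.2 ± 8.84, JUN at 58.2 ± 28.4 and JUND at 50.6 ± 39.2. JUNB, FOSL2, JUN and JUND did not differ beyond their spread. IER2 was at 29.0 ± 11.3 CPM per kb, and MAFF, FOS, EGR1 and FOSB lay between 3.59 and 5.72 CPM per kb without differing from their neighbours beyond their spread. In shPML, JUNB had the highest mean at 132 ± 112 CPM per kb and FOSL1 followed at 112 ± 22.1, within the spread of JUNB. Within shPML replicate 1 the order was the reverse, with FOSL1 at 96.2 and JUNB at 53.6 CPM per kb. FOS reached 25.6 ± 15.4 and FOSB 20.4 ± 3.83 CPM per kb. This placed both above EGR1 at 12.5 ± 6.87 and MAFF at 6.72 ± 0.819, but the spreads of both overlap that of EGR1. Within shPML replicate 1, FOS and FOSB were at 14.7 and 17.7 CPM per kb against 7.64 for EGR1. Within shPML replicate 2 they were at 36.5 and 23.1 against 17.4.

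The make-up of the Fos family was set side by side in the same unit, with no test. FOS and FOSB gave 4.97% and 3.88% of the Fos family level per kb in shCtrl of replicate 1, and 8.05% and 9.71% in shPML. In replicate 2 they gave 2.05% and 0.661% in shCtrl, and 14.4% and 9.16% in shPML. FOSL1 had the largest share per kb, from 50.5% to 56.5%, and FOSL2 gave 36.6% and 40.8% in shCtrl, and 29.5% and 25.9% in shPML. The summed Fos level had smaller ratios than FOS and FOSB themselves, with log2 ratios of 0.23 and 0.57 in replicates 1 and 2. The order of the Fos genes depends on the length scaling, since without it FOSL2 had the largest share, from 48.7% to 71.0%, and FOSL1 had 25.7% to 26.6%.
Within the Jun family, JUNB took 34.7% and 38.6% in shCtrl, and 47.5% and 52.2% in shPML, of replicates 1 and 2. JUN took 40.8% and 30.7% in shCtrl, and 31.1% and 19.3% in shPML. JUN was the most abundant Jun transcript per kb in shCtrl of replicate 1, and JUNB was so in each of the other libraries. Without length scaling JUN had the largest share in both shCtrl libraries and in shPML replicate 1, at 57.0%, 46.0% and 46.5%, and JUNB had it in shPML replicate 2, at 44.1%. The summed Jun level was 93.4 and 113 CPM per kb in shCtrl and shPML of replicate 1, and 255 and 405 CPM per kb in replicate 2.

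**Figure D4:**
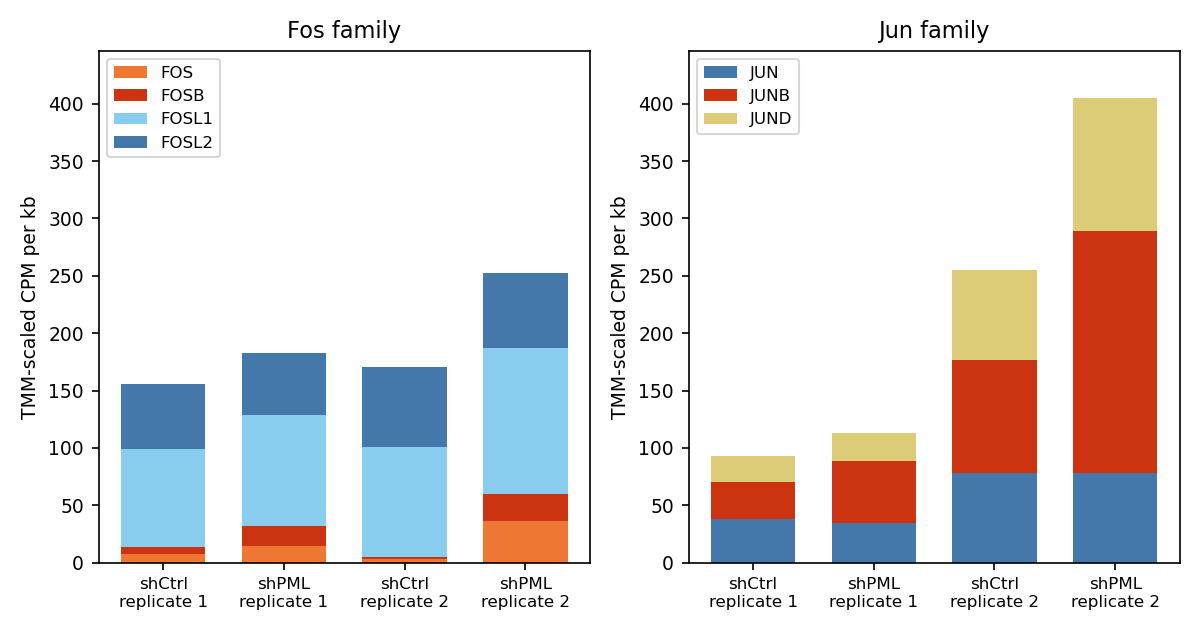
Stacked levels of the Fos genes (left) and Jun genes (right) in TMM-scaled CPM per kb of exonic length, with 1 bar per library. FOS and FOSB widen in both shPML bars, JUNB is the widest part of the Jun bar in shPML, and both replicate 2 bars of the Jun family are taller than both replicate 1 bars.

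The genes also differed between the experiments. In the fit with both terms, 6 of the 10 genes were called between replicates, 5 of them higher in replicate 2 and 1 lower, while 8.93% of all genes were called higher in replicate 2 and 4.53% lower. JUND and JUNB differed most, by 2.02 (standard error 0.11, adjusted p = 4.3e-22) and 1.79 (standard error 0.11, adjusted p = 3.3e-21) on the log2 scale in edgeR. JUN followed with 1.09, IER2 with 0.98 and EGR1 with 0.81. These differences were also present between the shCtrl libraries, whose summed myeloid markers were at 23.4 and 14.6 CPM, with 3.42-fold for JUND, 3.04-fold for JUNB, 2.05-fold for JUN, 1.76-fold for IER2 and 1.33-fold for EGR1. FOSB went the other way, at -0.84 (standard error 0.23, adjusted p = 0.00404 in edgeR). Its shCtrl level in replicate 2 was 0.186 times that in replicate 1, and its shPML level 1.31 times. FOS moved in opposite directions between the experiments, at 0.45 times in shCtrl and 2.48 times in shPML. Whether the response of a gene differed between experiments cannot be tested with 1 library per condition and experiment.

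**Figure D5:**
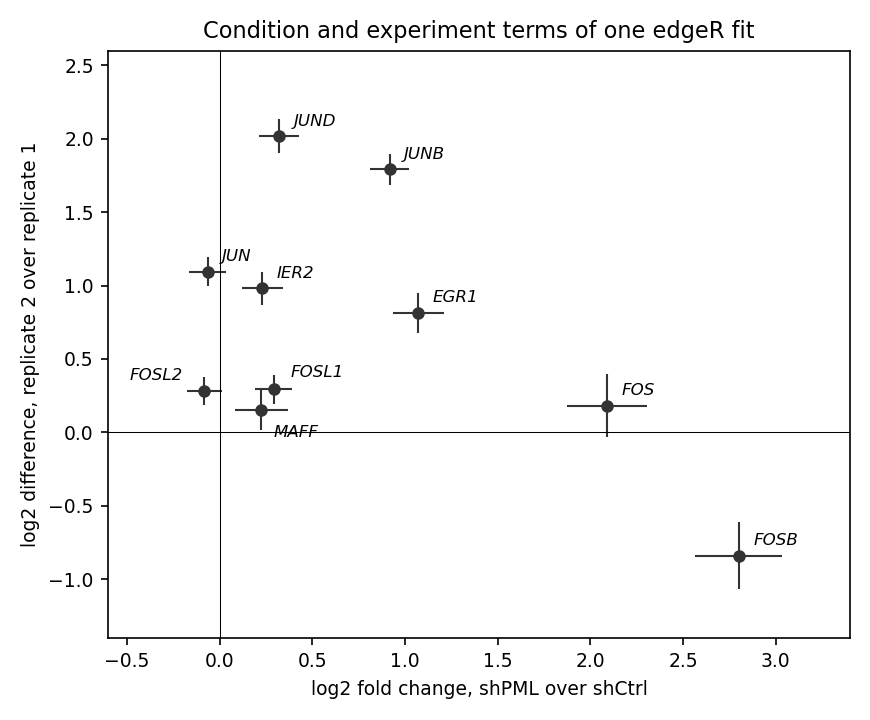
Log2 fold change of shPML over shCtrl (x axis) against the log2 difference of replicate 2 over replicate 1 (y axis) for the 10 genes, both from the edgeR fit with both terms, with standard errors as bars. FOS and FOSB lie far to the right, at 0.18 and -0.84 on the y axis. The FOS value on that axis combines opposite changes in shCtrl and shPML. JUND and JUN lie high with little difference between conditions, and JUNB and EGR1 differ on both axes.

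The genes tested whose centred log2 levels over the 4 libraries lay nearest to FOS were C3AR1, ITGB2 and MYD88, at Euclidean distances of 0.23, 0.24 and 0.35. ITGB2, the common chain of leukocyte integrins, was at 15.4 and 7.22 CPM in shCtrl and at 26.8 and 84.2 CPM in shPML of replicates 1 and 2, and it is on the marker list above. C3AR1 and MYD88 were low, at 1.26 and 0.50 CPM, and at 1.39 and 0.47 CPM, in the shCtrl libraries. Nearest to JUN were LRRC45, BTBD2 and ARHGDIA, at distances of 0.03, 0.04 and 0.05, each higher in both replicate 2 libraries and almost level between conditions. A pattern over 4 libraries matches many genes, and FOSB, the nearest to FOS among the 10 genes, came only at rank 174 of all genes.

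Other genes of the pathway were read from lists written from general knowledge. Among 27 tested basic leucine zipper partners outside the 10 genes, 4 were called higher and 2 lower with the block, and 0 without it, with a median log2 fold change of 0.01. ATF3, a stress-induced repressor that pairs with Jun proteins, rose with the block from 14.9 to 24.1 CPM in replicate 1 and from 13.2 to 22.7 CPM in replicate 2 (log2 fold change 0.73, adjusted p = 1.7e-05 in edgeR). ATF2, a Jun partner at TGACGTCA, fell from 53.5 to 25.2 CPM and from 60.6 to 27.7 CPM (-1.11, adjusted p = 3.3e-11 in edgeR with the block). ATF5 fell and MAF rose with the block in edgeR, at -0.56 and 0.69. In DESeq2 with the block ATF5 was called (adjusted p = 0.0025) and MAF was not (adjusted p = 0.176). CEBPB, also expressed by myeloid cells, rose with the block from 15.1 to 26.0 CPM in replicate 1 and from 40.2 to 82.1 CPM in replicate 2 (0.91, adjusted p = 1.4e-08 in edgeR).

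Of 31 other immediate early genes tested, 5 were called higher and 4 lower with the block, and 0 without it, with a median log2 fold change of 0.13 with the block. The genes called higher were KLF4, NR4A2, ZFP36, TRIB1 and BTG2, and those called lower were ID1, ID2, ID3 and DUSP1. In replicate 1 the log2 ratios of KLF4, ZFP36 and TRIB1 were 1.02, 0.72 and 0.78. NR4A2 and BTG2 had 0.61 and 0.197 there, against 2.87 and 1.07 in replicate 2. BTG2 was at 23.8 and 14.7 CPM in shCtrl and at 27.3 and 30.8 CPM in shPML of replicates 1 and 2. Replicate 2 holds the library with myeloid transcripts, whose part in these ratios was not tested. The conditions of NR4A2 overlapped, as shCtrl replicate 2 was above shPML replicate 1. ZFP36, which codes for an RNA-binding protein that speeds decay of early and cytokine transcripts, rose with the block from 9.03 to 14.9 CPM in replicate 1 and from 11.9 to 34.6 CPM in replicate 2 (1.13, adjusted p = 1.5e-08 in edgeR). KLF4, a zinc finger factor, rose with the block from 2.49 to 5.05 CPM and from 2.19 to 12.5 CPM (1.74, adjusted p = 6.5e-07 in edgeR). ID1, an inhibitor of basic helix-loop-helix factors, fell with the block from 45.5 to 16.8 CPM and from 117 to 40.2 CPM (-1.49, adjusted p = 6.9e-16 in edgeR). DUSP1, the phosphatase that switches off MAP kinases, fell with the block (-0.50, adjusted p = 3.4e-05 in edgeR). It went from 309 to 207 CPM in replicate 1 and from 322 to 239 CPM in replicate 2. DESeq2 with the block gave -0.495, short of the fold threshold of 0.5. EGR2 and EGR3 did not pass the filter and had 116 and 51 counts in shPML replicate 2, against at most 9 in any other library. NR4A1, a nuclear receptor that serum induces, was at 0.41 and 0.47 CPM in shCtrl and at 0.57 and 1.055 CPM in shPML, with an adjusted p of 0.393 in edgeR with the block.

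Among the genes upstream of the early genes, 21 of the SRF, ternary complex factor and ERK list were tested, with 1 called higher and 3 lower with the block. ELK3 and ELK1, both ternary complex factors, fell with the block, at -1.13 and -0.55 on the log2 scale. NAB1, a corepressor of EGR proteins, rose with the block by 0.69. SRF was at -0.31 with an adjusted p of 0.0259 in edgeR with the block, short of the fold threshold. Of 17 genes of the JNK and p38 pathways, MAPK13 rose and MAPK9, which codes for a JNK, fell with the block, at 0.60 and -0.73. Of 9 genes for the turnover of AP-1 proteins, FBXW7 rose and NDFIP1 fell with the block in edgeR, at 0.51 and -0.92. FBXW7 codes for a ubiquitin ligase subunit that targets JUN. DESeq2 with the block called NDFIP1 (adjusted p = 4.6e-10) but not FBXW7 (adjusted p = 0.0714).

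Of 22 known AP-1 target genes tested, 7 were called higher and 3 lower with the block, and 1 higher without it. The genes called higher were ITGA2, HMGA1, CXCL8, PLAU, CCND1, MMP1 and MMP9, and those called lower were IVL, IL11 and S100A2. ITGA2, a collagen receptor chain, rose from 14.6 to 42.8 CPM in replicate 1 and from 12.6 to 40.5 CPM in replicate 2 (1.62, adjusted p = 0.0484 in edgeR without the block). HMGA1, a chromatin architectural protein, rose with the block by 1.70, with log2 ratios of 1.19 and 2.24. CXCL8, the neutrophil chemokine that macrophages also make, went from 19.0 to 35.0 CPM in replicate 1 and from 24.1 to 101 CPM in replicate 2. MMP9, a matrix protease that macrophages also make, was at 2.73 and 16.1 CPM in shCtrl and at 14.6 and 449 CPM in shPML of replicates 1 and 2, so the conditions overlapped and the library with myeloid transcripts was far the highest. IVL fell with the block (-2.32), from 2.85 to 0.46 CPM and from 1.97 to 0.51 CPM.

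Of 15 genes of the cytoskeletal list, which SRF drives with its actin-sensing coactivators, 0 were called higher and 9 lower with the block, and 2 lower without it. TAGLN (transgelin) fell from 159 to 21.4 CPM in replicate 1 and from 209 to 20.7 CPM in replicate 2 (-3.13, adjusted p = 0.0484 in edgeR without the block). ACTG1, cytoplasmic gamma actin, fell from 3689 to 1097 CPM and from 4057 to 1211 CPM (-1.75, adjusted p = 0.0484 in edgeR without the block). CNN1 and TLN1 fell with the block, at -3.45 and -1.44. In replicate 1 alone the log2 ratios of these 4 genes lay between -2.96 and -1.64. Heat shock genes, read because early genes respond to handling, had 0 of 12 called higher and 3 lower with the block, namely HSPA1A, HSPA1B and HSPH1 at -0.71, -0.97 and -0.71. The background for all these lists with the block is the 8.57% of genes higher and 10.5% lower given above.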

How the data were processed

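RNA of 4 RCC4 libraries was sequenced, 2 of shCtrl and 2 of shPML. The authors deposited raw counts per gene, made per the submitters' processing notes with Trimmomatic 0.39, STAR and featureCounts 1.6.4 on the GRCh38 (hg38) genome. DESeq2 is named there too. Replicates were not pooled, and columns without a number were read as replicate 1.

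The counts were scaled by TMM to CPM and filtered with filterByExpr, which kept 16516 of 59050 genes. The main test was the quasi-likelihood test of edgeR 4.0.16 (R 4.3.3) without a block, with Benjamini-Hochberg adjustment over all genes tested. A call needed a log2 fold change past 0.5 in size together with an adjusted p below 0.05. Alternatives were the replicate number as a block, DESeq2 1.42.0, RLE scaling, other filters, levels without length scaling and leaving out each library. The replicate number was read as the experiment, from the study's methods. The deviations of the replicate 1 libraries from their group means correlated at 0.60 over 16516 genes, and the common dispersion was 0.0813 without and 0.0137 with the block. Whether the block is right rests on that reading.

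The smallest count of the 10 genes in a library was 225. Intervals on ratios are exact and cover counting error only. With n = 2 per group, p-values hold for these libraries only and rest on dispersions shared over genes, not on each gene's own spread alone. With the block the standard error of FOS in edgeR was 0.22, although its log2 ratios were 0.92 and 3.39. The scripts were tested on simulated data with a single dispersion for all genes. There edgeR without the block called 0 of 100 genes changed by 1 on the log2 scale, and 78 of 100 changed by 2. With the block edgeR called 97 and 100 of them. Of the unchanged genes 0 were called without the block and 13 with it. The members and all lists were chosen with earlier results of these data known. From each list up to 4 genes were named, those with the largest fold change among genes called with the block whose conditions did not overlap. ATF3, SRF, NR4A1, DUSP1, ZFP36, overlapping genes and the 3 nearest in pattern to FOS and JUN were named in any case, and other list genes after their values were seen. Some genes of the lists are not reported here. Promoter windows came from RefSeq, with GRCh38.p14.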

Additional observations from a re-analysis of the deposited data

How the results depend on the processing

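The number of calls depends on how the experiment is treated. Without the block 13 genes were called higher and 55 lower. With the replicate block edgeR called 1415 and 1735, DESeq2 536 and 851 without and 998 and 1297 with the block, no filter 891 and 946, and at least 10 counts in every library 53 and 144. RLE scaling called 0 in each direction, with 1352 genes higher and 1615 genes lower by unadjusted p below 0.05, and a smallest adjusted p of 0.0501, against 0.0484 with TMM. Leaving out each library gave 0 to 187 genes higher and 0 to 61 lower. The counts of 0 stood beside 825 and 1043, 523 and 887, and 756 and 1336 genes at an unadjusted p under 0.05 without shCtrl replicate 1, shCtrl replicate 2 and shPML replicate 2 in edgeR.

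Of the 10 genes 0 were called higher without the block, 4 with the replicate block, 2 in DESeq2 without and 2 with the block, and 4 with no filter. The genes lower in replicate 2 went from 749 to 298 with DESeq2. Leaving out each library turned the direction of FOSL2 (-0.23 to 0.059), JUN (-0.73 to 0.56), JUNB (-0.29 to 2.02), JUND (-1.07 to 1.596) and IER2 (-0.40 to 0.74). Such a fit leaves 1 library in an arm, assumed to vary like the other group, and mixes the experiments. FOS, FOSB, EGR1, FOSL1 and MAFF kept their direction in each of the 12 settings. The cause of these changes was not tested.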
